A study of Mus musculus with 19 samples.

Results

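The 10 genes described here encode proteins that process collagen chains inside the cell and crosslink collagen outside it. They are *Serpinh1*, *P4hb*, *P4ha1*, *P4ha2*, *Plod1*, *Plod2*, *Plod3*, *Lox*, *Loxl1* and *Loxl2*, taken by gene symbol from both deposited tables, which is 10 of the 24557 features listed in each. All libraries of both diets were used.

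The libraries came from the cornea and the conjunctiva of C57BL/6 mice (C57BL/6J in the study's methods) eating freely (ad libitum, AL) or held on calorie restriction (CR), and the comparison asked what CR changed in each tissue. Of the 19 libraries 10 were of cornea, with 5 for each diet, and 9 of conjunctiva, with 4 from AL and 5 from CR mice. A legend of the study gives the group sizes for conjunctiva the other way round, and the labels were followed. By the study's methods all mice were female, the corneal samples were epithelial cells scraped from the eye and the conjunctiva was excised whole. The sample titles carry 6 M and 50 W for both diets, and the labels name no altered gene and no drug. By those methods CR was reached stepwise, the CR mice were fed shortly before the dark phase, and in a cohort of the study the CR chow was enriched in vitamins and micronutrients. The ration, the feeding hour and, for mice of that cohort, the chow cannot be told apart.

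Collagen chains are built in the endoplasmic reticulum. There the prolyl 4-hydroxylases and the lysyl hydroxylases add hydroxyl groups to proline and lysine, and the chaperone HSP47, encoded by *Serpinh1*, binds the folded triple helix until it has left for the Golgi. After secretion, the lysyl oxidases, which are copper enzymes, oxidize lysine and hydroxylysine residues so that neighbouring collagen and elastin molecules become covalently crosslinked. In the conjunctiva collagen lies mainly in the connective tissue under the epithelium, where fibroblasts make it, while the corneal epithelium contributes little fibrillar collagen of its own.

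The cornea libraries held between 10353873 and 14680980 counted reads, and the conjunctiva libraries between 10726357 and 14433080. A count of 0 allows up to 3 reads, or 2.27 to 3.37 normalized counts by library, a limit that covers counting error only. The markers followed the labels only in part. The corneal keratin *Krt12* stood between 179846 and 340965 normalized counts in the cornea, where the keratocyte gene *Kera* reached at most 13.1. *Dcn*, listed for keratocytes and fibroblasts alike, still held 205 to 1141 there, and freedom from stromal RNA was not tested. The conjunctival keratin *Krt13* was high in both tissues, at 21686 to 48151 for cornea and 10269 to 40522 for conjunctiva. Other genes of its list followed the labels, with *Muc5ac*, *Muc5b*, *Spdef* and *Agr2* at most at 43.3, 2.19, 5.50 and 77.1 in the cornea. The ranges of *Krt4* and *Krt19* overlapped between the tissues. All 4 genes of this list tested in the cornea had higher estimates under CR, with 0 called and 2 at an unadjusted p under 0.05 (limma). *Krt12* reached 5139 in conjunctiva libraries, whose goblet cell mucin *Muc5ac* stood between 2328 and 6593. The conjunctiva libraries also held skeletal muscle RNA, with a summed level of the 9 muscle markers from 14959 to 146121 normalized counts. Among the cornea libraries AL 1 stood apart, with 24989 normalized counts summed over the 7 lacrimal gland markers against an AL median of 529 and a CR maximum of 397. All values are from bulk samples, in which fewer cells of a type and less RNA per cell cannot be told apart.

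The promoters of *Serpinh1*, *P4ha1* and *P4hb* are given first because the first 2 genes are set against *P4hb* below, as a description. Each run holds 250 bases before to 50 bases after the annotated start, written 5′ to 3′ on the strand of the gene, from the RefSeq table on GRCm38.p6. The positions are chr7:99353190-99353489 on the minus strand for *Serpinh1*, chr10:59323046-59323345 on the plus strand for *P4ha1* and chr11:120573204-120573503 on the minus strand for *P4hb*. For *P4ha1* the start used for the window is not the first base of the gene, 59323197, which lies inside the window. Capitals mark the letters of the motifs searched on both strands, which were CCAAT, the GC box GGGCGG, the hypoxia response core ACGTG, its other form GCGTG, and the paired heat shock units GAANNTTC (head to head) and TTCNNGAA (tail to tail).
Serpinh1: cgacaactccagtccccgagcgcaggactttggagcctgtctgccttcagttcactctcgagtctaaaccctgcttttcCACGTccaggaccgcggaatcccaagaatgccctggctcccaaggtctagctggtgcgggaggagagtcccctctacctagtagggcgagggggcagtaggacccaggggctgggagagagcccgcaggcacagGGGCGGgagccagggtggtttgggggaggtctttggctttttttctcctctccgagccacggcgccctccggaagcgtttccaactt
P4ha1: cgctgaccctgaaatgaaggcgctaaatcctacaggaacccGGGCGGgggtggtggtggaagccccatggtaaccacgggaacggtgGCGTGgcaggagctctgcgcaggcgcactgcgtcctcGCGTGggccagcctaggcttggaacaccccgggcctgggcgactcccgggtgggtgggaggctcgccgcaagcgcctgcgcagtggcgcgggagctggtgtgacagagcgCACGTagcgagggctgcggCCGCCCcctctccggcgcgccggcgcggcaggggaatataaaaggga
P4hb: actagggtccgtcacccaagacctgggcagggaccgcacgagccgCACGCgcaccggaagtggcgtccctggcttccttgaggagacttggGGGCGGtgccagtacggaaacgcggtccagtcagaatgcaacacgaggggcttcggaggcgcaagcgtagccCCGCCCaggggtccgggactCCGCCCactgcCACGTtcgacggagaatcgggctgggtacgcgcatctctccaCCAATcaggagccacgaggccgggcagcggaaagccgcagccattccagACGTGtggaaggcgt
The *Serpinh1* window held 1 GC box and 1 ACGTG. The *P4ha1* window held 2 GC boxes, 1 ACGTG and 2 GCGTG, and the *P4hb* window held 1 CCAAT, 3 GC boxes, 2 ACGTG and 1 GCGTG. In these 3 windows no match overlapped another, and the letters of the paired heat shock units were not in them. Of 32851 promoters of this length, 37.4% held CCAAT, 35.7% GGGCGG, 19.6% ACGTG, 32.4% GCGTG, 7.86% GAANNTTC and 8.52% TTCNNGAA. These matches are a description of letters and not of bound sites.

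In the conjunctiva *Serpinh1* fell under CR and was the only one of the 10 genes to pass both thresholds (limma, Benjamini-Hochberg adjusted p under 0.05 and a fold over 1.5). Another 3 genes, *Loxl2*, *Loxl1* and *P4ha1*, had lower levels under CR at an unadjusted p under 0.05 but did not pass after adjustment. The study, which used DESeq2 with the same cut-offs, names *Loxl2* as well as *Serpinh1* among its differentially expressed conjunctiva genes. Whether *Loxl2* passes thus depends on the method. The remaining 6 did not reach an unadjusted p of 0.05, and among them *P4hb*, the most heavily read of the 10 genes, had nearly equal means in both diets. The calls are to be read against the whole table, in which 50 of 13928 genes tested (0.359%) were called in either direction, 31 of them higher and 19 (0.136%) lower. With quantile normalization 29 were called higher and 27 lower. A lower value at an unadjusted p under 0.05 was seen for 4 of the 10 genes and for 4.87% of all genes tested. The CR libraries all lay below the AL libraries for 3 of the 10 genes and for 1.95% of all genes tested. The log2 change was below 0 for 9 of the 10 genes and for 52.0% of all genes tested, and its median was −0.41 over the 10 genes and −0.02 over all genes.

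**Figure D1:**
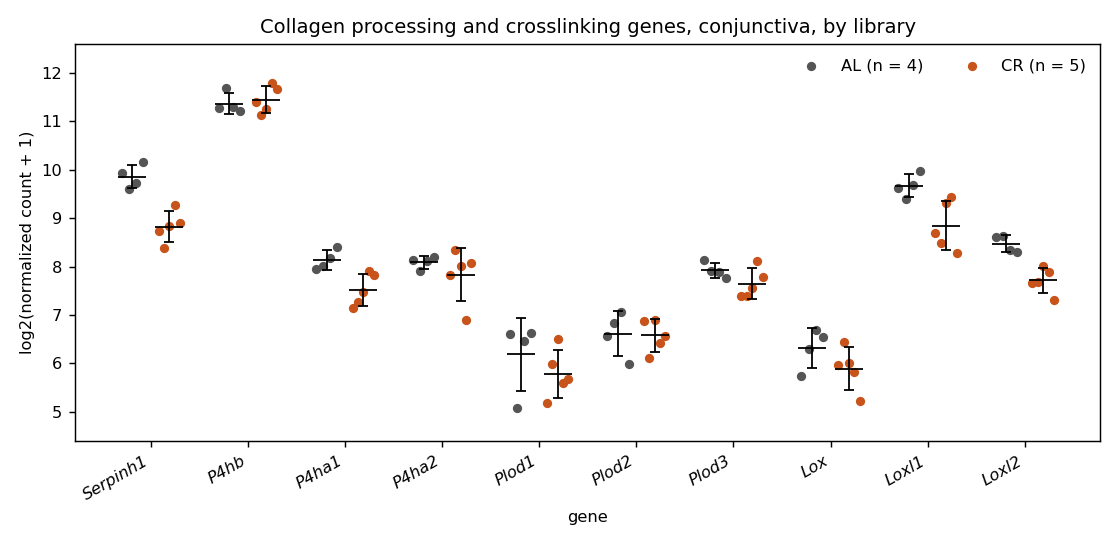
Level of each gene in each conjunctiva library as log2(normalized count + 1), with AL libraries in grey (n = 4) and CR libraries in orange (n = 5), and the mean and SD of each group in black. The CR points lie below every AL point for *Serpinh1*, *P4ha1* and *Loxl2*, and the groups overlap for the other genes.

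*Serpinh1* (gene identifier 12406, chromosome 7 from 99345375 to 99353239) stood at 974, 778, 849.9 and 1137 normalized counts in AL 1, AL 3, AL 4 and AL 5. In the CR libraries 1 to 5 it stood at 427, 331, 454, 619 and 479.8. Every CR library lay below every AL library, with 619 in CR 4 against 778 in AL 3 as the nearest values. The mean went from 934.4 ± 157 (SD, n = 4) to 462 ± 104 (n = 5), a log2 change of −1.03 ± 0.18 (SE, 95% interval −1.41 to −0.65), or a level 2.04-fold lower (limma adjusted p = 0.0149, unadjusted p = 2.96e-05). This ranked 27 among the p-values of the 13928 genes. Leaving out AL 1, AL 5, CR 1 or CR 2 ended the call, with limma adjusted p-values of 0.0886, 0.0770, 0.0612 and 0.0564 in that order, and the log2 change over all alternatives ran from −1.14 to −0.92. Under ordinary moderation in limma the adjusted p was 0.152.

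Prolyl 4-hydroxylase is a tetramer of alpha subunits, which carry the active site and are encoded by *P4ha1* or *P4ha2*, and beta subunits, which are protein disulfide isomerase, encoded by *P4hb*. *P4ha1* (18451, chromosome 10 from 59323197 to 59373304) stood at 248, 257, 289 and 337 normalized counts in the AL libraries. In the CR libraries it stood at 140.3, 153, 176, 238 and 226, all below the lowest AL library. Its log2 change was −0.62 ± 0.21 (SE, 95% interval −1.05 to −0.18), with an unadjusted p of 0.0085 and a limma adjusted p of 0.291.

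The other alpha subunit gene, *P4ha2* (18452), stood at 281, 238, 274 and 291 normalized counts under AL. Under CR it stood at 226, 322, 258, 119 and 269, so the highest value of all and the lowest were both CR libraries. Its log2 change was −0.25 with a 95% interval from −0.77 to 0.27 (limma adjusted p = 0.799), an interval that holds both no change and the estimate for *P4ha1*. Without CR 4 the change was −0.020.

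The beta subunit gene *P4hb* (18453, chromosome 11 from 120560298 to 120573253) stood at 2475, 3296, 2502 and 2387 normalized counts under AL and at 2709.8, 2232, 2453, 3539.8 and 3264 under CR. The groups overlapped throughout. The log2 change was 0.08 ± 0.16 (95% interval −0.26 to 0.43, limma adjusted p = 0.913), and its sign turned with quantile normalization (−0.04) and without CR 4 (−0.002). This enzyme also serves the folding of proteins other than collagen.

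Because all 3 subunit genes were read in the same libraries, the alpha and beta levels could be set against each other within a library, where the scaling of the library cancels. The log2 value of *P4ha1* minus that of *P4hb* ran from −3.68 to −2.82 in the AL libraries and from −4.26 to −3.80 in the CR libraries. For *Serpinh1* minus *P4hb* the AL libraries ran from −2.08 to −1.07 and the CR libraries from −2.76 to −2.43. In both cases the CR libraries lay below the AL libraries without overlap, as they did for 1.46% of the other genes tested when set against *P4hb*. Both genes were already apart on their own values, and *P4hb* was chosen as the reference with its values known, so this is a description. For *P4ha2* minus *P4hb* the AL libraries ran from −3.79 to −3.03 and the CR libraries from −4.88 to −2.79, with overlap. These differences combine counts of genes of unlike length, so only their shift between diets can be read.

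**Figure D2:**
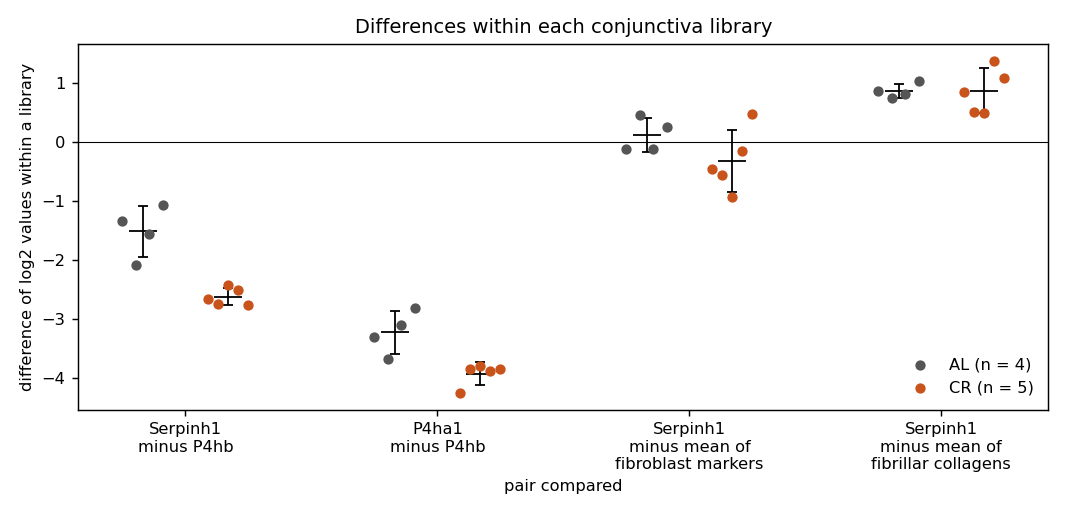
Differences of log2(normalized count + 1) within each conjunctiva library for 4 pairs, with AL libraries in grey (n = 4), CR libraries in orange (n = 5), and the mean and SD of each group in black. The diets separate for *Serpinh1* and *P4ha1* measured against *P4hb*, and overlap for *Serpinh1* measured against the mean of 15 fibroblast markers or of 9 fibrillar collagen genes.

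The lysyl hydroxylases, encoded by *Plod1*, *Plod2* and *Plod3*, make the hydroxylysine that serves glycosylation and the more stable crosslinks. None of the 3 passed the test in the conjunctiva (limma, with 0 of them at an unadjusted p under 0.05 and 0 called by limma voom). *Plod3* (26433, chromosome 5 from 136987019 to 136996646), whose enzyme also transfers sugars to hydroxylysine, stood at 281, 240.1, 235 and 216 normalized counts under AL and at 167, 167, 186, 278 and 221 under CR. CR 1, CR 2 and CR 3 lay below every AL library and the other two lay among them, for a log2 change of −0.28 ± 0.20 (95% interval −0.70 to 0.15, limma adjusted p = 0.711).

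*Plod1* (18822) was less deeply read, with 29 to 120 reads a library. It stood at 96.5, 32.5, 87.1 and 97.2 normalized counts under AL and at 35.1, 62.8, 89.8, 47.1 and 49.9 under CR, with the lowest value of all in AL 3. Its log2 change was −0.40 with a 95% interval from −1.22 to 0.42 (limma adjusted p = 0.796), which moved to −0.78 without AL 3 and to −0.25 without CR 1. *Plod2* (26432), which hydroxylates the telopeptide lysines at the ends of the collagen molecule, ran from 62.7 to 133 normalized counts under AL and from 67.6 to 119 under CR. Its log2 change of −0.04 (95% interval −0.65 to 0.57, limma adjusted p = 0.979) changed sign in 6 of the 20 alternatives. Of these, the replicate block and leaving out CR 2 gave the same value (0.081). *Plod2*, *Plod3* and *Loxl2* overlap other annotated genes and are uncertain to that extent.

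Among the lysyl oxidases, *Loxl2* and *Loxl1* were the nearest to passing. *Loxl2* (94352, chromosome 14 from 69608692 to 69695834), whose product crosslinks collagen IV of basement membranes among other substrates, stood at 392, 398, 322 and 315 normalized counts under AL. Under CR it stood at 203, 206, 256, 237 and 158, all below the AL libraries. This was a log2 change of −0.76 ± 0.19 (95% interval −1.15 to −0.37, unadjusted p = 0.00081, limma adjusted p = 0.104).

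*Loxl1* (16949, chromosome 9 from 58287723 to 58313212), whose enzyme acts mainly in elastic fiber assembly, stood at 788, 673, 827 and 1003 normalized counts under AL. Under CR it stood at 416, 359.8, 632, 697 and 309, so that CR 4 alone lay above the lowest AL library. The log2 change was −0.83 ± 0.23 (95% interval −1.31 to −0.34, unadjusted p = 0.0025, limma adjusted p = 0.180). With array weights, which give less weight to noisier libraries, *Loxl1* and *Loxl2* passed beside *Serpinh1* (limma adjusted p = 0.0315, 0.0337 and 0.0014), and over all alternatives the adjusted p ran from 0.0315 to 0.536 for *Loxl1* and from 0.0337 to 0.317 for *Loxl2*.

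*Lox* (16948), the founding member of the family, stood at 52.3, 77.4, 102 and 91.8 normalized counts under AL and at 61.4, 85.7, 63.7, 55.3 and 36.6 under CR. The groups overlapped in 4 of the 5 CR libraries, with CR 5 below every AL library, and the log2 change was −0.42 with a 95% interval from −1.11 to 0.27 (limma adjusted p = 0.735). *Lox* was also the least read of the 3 oxidase genes, at 33 to 101 reads a library, against 279 to 1104 for *Loxl1*.

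Markers of cell types had estimates in both directions between the diets. All 15 fibroblast markers tested in the conjunctiva had a log2 change below 0, with 0 called, 9 at an unadjusted p under 0.05 (limma) and a median of −0.59. Their summed level ran from 32049 to 48051 normalized counts under AL and from 20851 to 42045 under CR, and *Lamc3* had 0 reads in some libraries of both diets. Measured against the mean log2 value of these markers, *Lamc3* included, *Serpinh1* ran from −0.12 to 0.47 under AL and from −0.94 to 0.48 under CR. The groups overlapped through CR 5, at 0.48, which had the lowest marker mean (8.43). Among the AL libraries the lowest marker mean (9.14, AL 3) likewise went with the highest value (0.47). The other CR libraries lay at −0.14 or below, with CR 4 (−0.14) just under AL 4 (−0.12). This is a description and not a test. The groups also overlapped for *Loxl1* (−0.42 to 0.26 and −0.48 to 0.03), *Loxl2* (−1.59 to −0.50 and −1.76 to −1.11) and *P4ha1* (−2.08 to −1.13 and −2.30 to −0.60).

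The 10 macrophage markers were also all lower in log2 change, with 0 called, 7 at an unadjusted p under 0.05 (limma) and a median of −0.56, and their summed level ran from 4422 to 5576 under AL and from 3020 to 4239 under CR. The 6 fat markers tested all had a log2 change above 0 (median 1.46, 0 called, 3 at an unadjusted p under 0.05), with sums from 199.7 to 1646 under AL and from 617 to 2346 under CR. The 9 skeletal muscle markers were all higher too (median 0.43, 0 called and 0 at an unadjusted p under 0.05). The part of these shifts in the values of the 10 genes was not tested.

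The genes that work beside the 10 on collagen were read from lists of other genes of the same route. Of the other proline and lysine modification genes, 10 of 12 were tested in the conjunctiva, with 7 lower, 0 called and 2 at an unadjusted p under 0.05 (limma), and a median log2 change of −0.28. These were *Fkbp14* (103 ± 16.6 to 59.6 ± 33.0 normalized counts, SD, n = 4 and 5, limma adjusted p = 0.453) and *Fkbp10* (95.8 ± 14.5 to 58.8 ± 31.8, adjusted p = 0.522), both peptidyl-prolyl isomerases of the endoplasmic reticulum. Of the genes for procollagen export and propeptide removal, 14 of 17 were tested, with 12 lower, 0 called, 4 at an unadjusted p under 0.05 and a median of −0.22. The smallest p-values in that list were those of *Bmp1* (300.4 ± 12.9 to 203 ± 88.5, limma adjusted p = 0.402) and *Tll1* (42.9 ± 10.6 to 16.7 ± 12.7, adjusted p = 0.475), which encode related proteinases that cut off the C-propeptide.

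Of 11 other lysyl oxidase genes and partners, 7 were lower, 0 were called and 2 had an unadjusted p under 0.05, with a median log2 change of −0.31 in the conjunctiva. *Fn1*, encoding fibronectin, stood at 801 ± 95.4 normalized counts under AL and 510.2 ± 104 under CR (log2 change −0.67 ± 0.17, limma adjusted p = 0.117). *Postn*, encoding periostin, stood at 2384 ± 245 and 1520.2 ± 349 (−0.68 ± 0.17, adjusted p = 0.131). For both genes all CR libraries lay below the AL libraries.

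The substrates themselves, the fibrillar collagens, were lower in 9 of 9 genes tested, with 4 called, 6 at an unadjusted p under 0.05 (limma) and a median log2 change of −0.92. They included *Col3a1*, *Col5a3* and *Col1a1* (limma adjusted p = 0.0034, 0.0057 and 0.0059), and ordinary moderation in limma called 0 of the list. Measured against the mean log2 value of these 9 genes, *Serpinh1* ran from 0.74 to 1.03 under AL and from 0.50 to 1.39 under CR, so the groups overlapped. The list counts stand against 0.136% of all genes called lower and 4.87% lower at an unadjusted p under 0.05.

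General chaperones of the endoplasmic reticulum gave a mixed picture. Of 17 tested in the conjunctiva, 11 were lower and 6 higher, with 0 called, 4 lower and 1 higher at an unadjusted p under 0.05 and a median of −0.13. *Hyou1*, a large HSP70-type chaperone, stood at 255 ± 103 and 133 ± 25.9 normalized counts under AL and CR (log2 change −0.89 ± 0.25, limma adjusted p = 0.188). *Herpud1*, a gene of the unfolded protein response, went the other way, at 1244 ± 94.8 and 1823 ± 268 (0.54 ± 0.14, adjusted p = 0.139).

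Genes induced by hypoxia, a class to which *P4ha1*, *P4ha2*, *Plod2* and *Lox* are known to belong, were lower in 9 and higher in 10 of 19 tested, with 0 called, 2 higher at an unadjusted p under 0.05 and a median of 0.004. Both genes, *Mxi1* (595 ± 47.0 to 849.8 ± 133 normalized counts, limma adjusted p = 0.209) and *Hk2* (2015 ± 348 to 2992 ± 556, adjusted p = 0.212), had higher means under CR. Of 8 genes induced by TGF-β, the smooth muscle markers *Acta2* and *Tagln* among them, 7 were lower and 0 were called. The 1 gene with an unadjusted p under 0.05 was *Bgn*, encoding biglycan (1647 ± 360 to 1114 ± 388, limma adjusted p = 0.506).

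**Figure D3:**
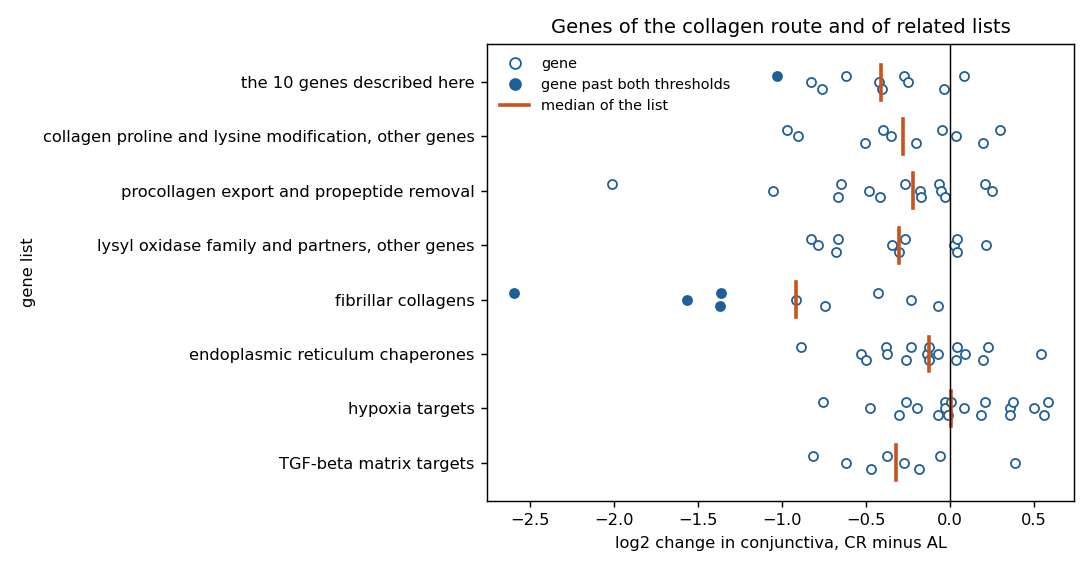
Log2 change in the conjunctiva, CR minus AL, of every gene tested in each list, with filled points for genes past both thresholds and an orange bar at the median. *Serpinh1* is the filled point of the 10 genes, and the fibrillar collagens hold the other 4 filled points.

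Across the 9 conjunctiva libraries, the genes whose log2 values followed *Serpinh1* most closely were *Slc16a9* (Pearson r = 0.977), *Dapk1* (0.974), *Col3a1* (0.973), *4933412E12Rik* (0.957) and *Col1a1* (0.956). Among the 10 genes *P4ha1* (0.904), *Loxl1* (0.860), *Loxl2* (0.786) and *Plod3* (0.711) came nearest and *P4hb* (0.010), *P4ha2* (0.016) and *Plod2* (−0.05) were at about 0. With the mean of each diet subtracted the leading genes were *Slc16a9* (0.959), *Mmrn1* (0.937), *Coro7* (0.932), *Arhgap19* (0.932) and *BC022687* (0.929). *P4ha1* then stood at 0.748, *Plod3* at 0.650, *Loxl1* at 0.646, *P4hb* at 0.390 and *Plod1* at 0.212. *Loxl2* stood at −0.0042, *Plod2* at −0.22, *Lox* at −0.41 and *P4ha2* at −0.63. These values describe 9 libraries that share their scaling and their diets.

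In the cornea none of the 10 genes was called (limma, 0 of 7 tested, with 1 at an unadjusted p under 0.05, and 0 by limma voom). Over all genes tested there, 150 of 12277 (1.22%) were called and 18.1% had an unadjusted p under 0.05. *Lox*, *Loxl2* and *Plod2* were under the filter of a mean of 10 normalized counts and were not tested. The median log2 change of the 7 genes was 0.01, against −0.03 over all genes.

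*Plod3* was the gene with the unadjusted p under 0.05 in the cornea, in the direction opposite to its estimate in the conjunctiva. It stood at 116, 110.3, 119, 61.9 and 50.5 normalized counts in AL 1 to AL 5. In CR 1, 2, 3, 4 and 7 it stood at 148, 132, 146, 119.6 and 157, all above the AL libraries, though CR 4 and AL 3 differed by less than 1 normalized count. A separation with CR above was seen for 1 of the 7 genes and for 2.08% of all genes tested. The log2 change was 0.69 ± 0.25 (95% interval 0.16 to 1.23, unadjusted p = 0.0138), and the limma adjusted p of 0.172 did not pass.

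**Figure D4:**
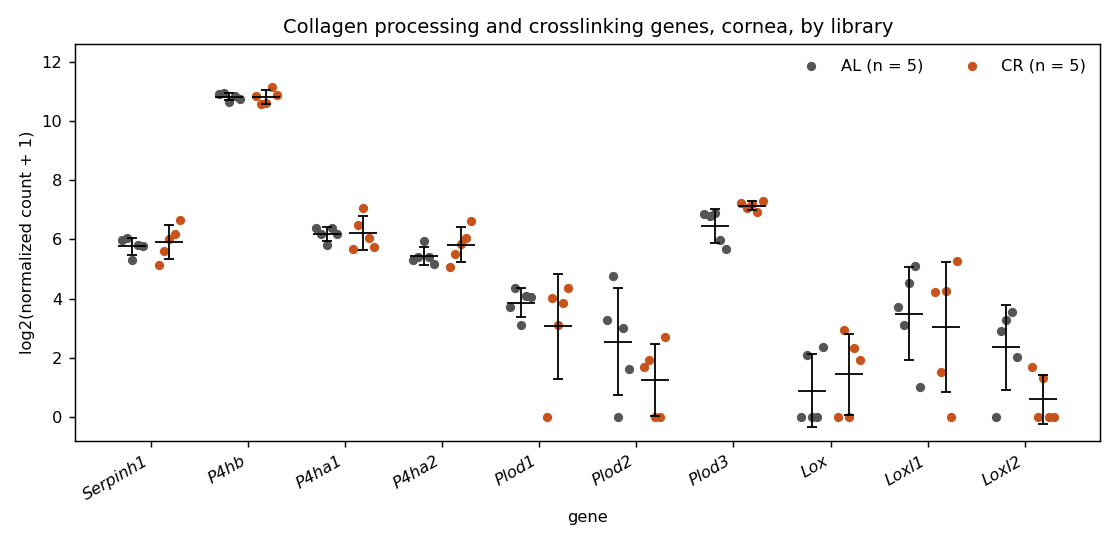
Level of each gene in each cornea library as log2(normalized count + 1), with AL libraries in grey (n = 5) and CR libraries in orange (n = 5), and the mean and SD of each group in black. Points at 0 are libraries with 0 reads, which occur for *Plod1*, *Plod2*, *Lox*, *Loxl1* and *Loxl2*.

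*Serpinh1* had 61.6, 64.5, 38.2, 54.8 and 53.6 normalized counts in the AL cornea libraries and 33.9, 48.1, 63.6, 71.5 and 99.4 in the CR libraries. The CR libraries held both the lowest and the highest values. The log2 change was 0.14 with a 95% interval from −0.52 to 0.80 (limma adjusted p = 0.841), and its sign turned in 3 of 21 alternatives.

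*P4hb* stood at 1817 ± 149 and 1806 ± 301 normalized counts (SD, n = 5 each), a log2 change of −0.02 with the narrowest interval of the 7 genes, from −0.27 to 0.23 (limma adjusted p = 0.951). *P4ha1* stood at 72.9 ± 11.2 and 78.0 ± 34.1 (log2 change 0.01, 95% interval −0.59 to 0.62, adjusted p = 0.986) and *P4ha2* at 43.5 ± 10.2 and 59.4 ± 24.9 (0.37, −0.33 to 1.07, adjusted p = 0.584). The sign of the *P4hb* and *P4ha1* values turned in 4 of 21 alternatives each, and the *P4ha2* change was 0.17 without CR 7. Within a library, *P4ha1* minus *P4hb* ran from −4.83 to −4.46 under AL and from −5.17 to −3.54 under CR, with overlap, and *P4ha2* minus *P4hb* from −5.60 to −4.70 and from −5.77 to −4.23.

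*Plod1* (7 to 18 reads a library under AL, 0 to 21 under CR) and *Loxl1* (1 to 38 and 0 to 40) had few reads. Their log2 changes of −0.80 and −0.44 had 95% intervals from −2.59 to 0.98 and from −2.68 to 1.79, which hold both 0 and the conjunctiva estimates. Without CR 1, which had 0 reads of *Plod1*, the *Plod1* value was −0.037. *Loxl2* had 0, 6, 8, 12 and 3 reads in AL 1 to AL 5 and 2, 0, 2, 0 and 0 reads in the CR libraries. *Plod2* had 0 to 24 reads under AL and 0 to 6 under CR, and *Lox* at most 7 reads in any library. No fold is given for these 3 genes, whose values lay mostly at or near the limit that a count of 0 allows.

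Few genes of the lists around the 10 genes passed in the cornea. Among the hypoxia targets *Pfkfb3*, a regulator of glycolysis, rose from 356 ± 18.3 to 565 ± 88.9 normalized counts (SD, n = 5 each, log2 change 0.65 ± 0.13, limma adjusted p = 0.0163), as 1 called of 16 tested. It no longer passed in 6 of 21 alternatives, among them leaving out AL 1, AL 5 or CR 3 (adjusted p from 0.0503 to 0.0636, limma), the covariate for unread genes (0.0586) and ordinary moderation (0.0697). Among the TGF-β targets *Ctgf*, encoding a matricellular protein, rose from 66.6 ± 25.1 to 179 ± 88.0 (1.38 ± 0.33, adjusted p = 0.0445), as 1 called of 5 tested. That call was lost in 12 of 21 alternatives, among them leaving out AL 1, AL 2, AL 3, AL 5, CR 3, CR 4 or CR 7 and limma voom (adjusted p = 0.0869). In the lists of other modification genes (6 tested), export and propeptide genes (11), other lysyl oxidase genes and partners (8), fibrillar collagens (5) and chaperones (17), 0 were called (limma), with 1, 0, 2, 1 and 0 at an unadjusted p under 0.05. The 2 oxidase partners went opposite ways, *Thbs1* higher (log2 change 0.92) and *Fmod* lower (−1.92). All 5 fibrillar collagens tested were lower, with a median log2 change of −0.59 against −0.03 over all genes. Their summed level ran from 447 to 1039 normalized counts under AL and from 156 to 890 under CR. The 11 fibroblast markers tested had a median log2 change of 0.08 (3 lower, 8 higher, 0 called and 0 at an unadjusted p under 0.05), with sums from 712 to 1656 under AL and from 693 to 1990.3 under CR.

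Likeness to *Serpinh1* was also ranked over the 10 cornea libraries. The highest Pearson r values were those of *Dnajc14* (0.947), *Fundc2* (0.940), *Hopx* (0.938), *Mal* (0.928) and *B3galnt2* (0.908). Among the 10 genes *Plod1* (0.682) and *P4ha2* (0.631) came nearest and *P4ha1* stood at 0.161. Levels of *Serpinh1* in the cornea rested on 31 to 107 reads a library, so counting error takes a larger share of these values than in the conjunctiva (348 to 1251 reads).

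Set side by side, with no test because each tissue was scaled in its own table, *Serpinh1* took 4.69 ± 0.82 RPM (reads per 1000000 counted reads of the library) in AL cornea (SD, n = 5) and 79.1 ± 13.4 in AL conjunctiva (n = 4). Under CR it took 5.47 ± 2.04 and 36.6 ± 7.17 (n = 5 each). *Loxl1* took 1.32 ± 1.11 and 69.6 ± 11.6 RPM in AL cornea and conjunctiva, and *P4hb* took 157 ± 10.8 and 225 ± 33.0.

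Whether the response to diet differed between the tissues was tested for the 7 genes measured in both, as the difference of their log2 changes. Of these, 0 passed (adjusted p under 0.05, from the limma fits), as against 2 of 11928 genes (0.0168%) in all, and 0 passed with 1 limma fit of all 4 groups. The test treats the tissues as independent, although by the study's methods more than 1 tissue was taken from each mouse. Whether equally numbered libraries of both tissues share a mouse is not given in the sources used here. A limma fit with the title number as a random block (estimated correlation −0.087) gave −1.18 for *Serpinh1* (adjusted p = 0.504) and also passed 0 of the 7. *Serpinh1* had the largest difference, −1.17 ± 0.36 in the conjunctiva relative to the cornea (SE, 95% interval −1.91 to −0.43, unadjusted p = 0.0030, limma adjusted p = 0.387). *Plod3* followed with −0.97 ± 0.32 (−1.63 to −0.31, unadjusted p = 0.0052, adjusted p = 0.419). An unadjusted p under 0.05 with the lower change in the conjunctiva was seen for these 2 of the 7 genes and for 3.7% of all genes tested. For *P4hb* the difference was 0.10 with a 95% interval from −0.31 to 0.51, and for *P4ha1* −0.63 from −1.35 to 0.09 (limma adjusted p = 0.928 and 0.707).

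**Figure D5:**
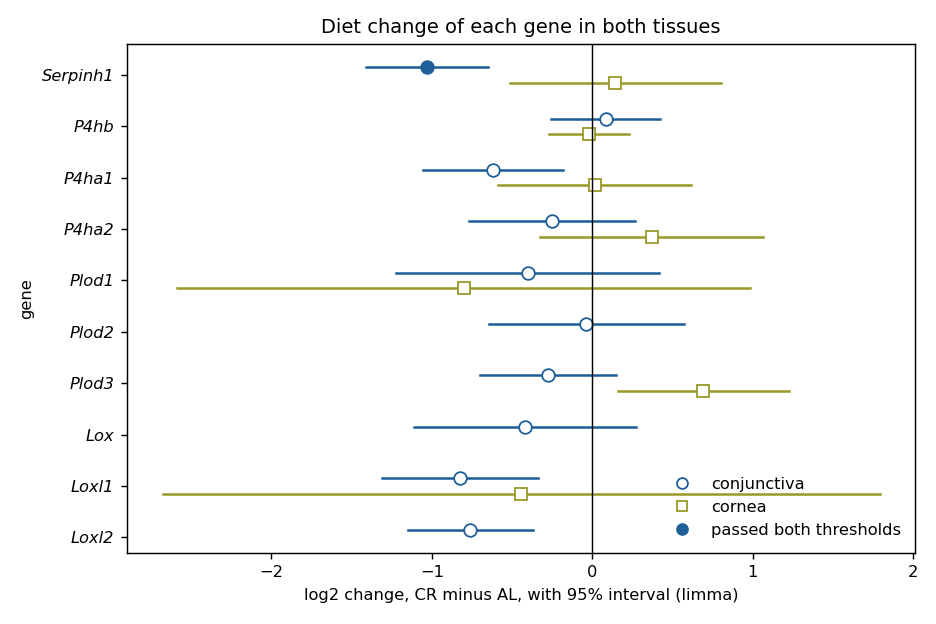
Log2 change, CR minus AL, of each gene in the conjunctiva (blue circles, 4 AL and 5 CR libraries) and the cornea (green squares, 5 and 5), with its 95% interval from limma and a filled point where both thresholds were passed. *Serpinh1* in the conjunctiva is the filled point at −1.03, and *Lox*, *Loxl2* and *Plod2* have no cornea value because they were under the filter.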

How the data were processed

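The authors trimmed single reads with cutadapt, aligned them with STAR, counted them per gene with HTSeq and scaled each tissue on its own with DESeq2 size factors. The deposited values are log2 of the normalized count plus 1. The study's methods name build mm10 and the submitters' processing notes GRCm39. Coordinates here are on GRCm38.p6. The labels name a stranded mRNA kit and the methods an oligo(dT)-primed one, so levels were not compared between genes, and whether counting used strand is not given in the sources used here. Whole reads were recovered from all values (100% within 0.01 of a whole number). Of 24557 features, 5 symbols were listed more than once and their rows left out.

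Diets were compared within each tissue with limma 3.58.1 (statmod 1.5.0, R 4.3.3) on log2(normalized count + 1), with an intensity trend and robust moderation, leaving out genes whose mean was under 10 normalized counts. Genes were called at an adjusted p under 0.05 and a fold over 1.5. Changes on this scale understate those of genes with few reads, and, where a library has 0 reads, can exceed the ratio of the means. To compare tissues, each gene's conjunctiva change minus its cornea change was divided by the joint standard error (Satterthwaite degrees of freedom). The 10 genes and the gene lists were chosen with earlier results of these data known. Named list genes are those called (at most 3), or otherwise the 2 with the smallest p. Likeness to *Serpinh1* was ranked by Pearson r, and the 5 highest are given. The study's text counts its groups in mice, which the labels do not state, and p-values measure the spread between libraries. The procedure was also run on simulated counts drawn independently for each gene, which does not check the calls in these data. The alternatives comprised the pseudocounts 0.5 and 10, a filter at 50 or none, quantile and trimmed-mean scaling, array weights, limma voom on recovered reads, each library's share of unread genes as a covariate, the replicate number as a block, ordinary moderation and leaving out each library.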

Additional observations from a re-analysis of the deposited data

Results flagged for a closer look

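Among 34 groups of 4 or 5 libraries in which a single library could stand apart from the rest, 3 did, where chance alone marks about 1 in 20 groups. *Plod1* in the cornea library CR 1 had 0 reads, a log2 value of 0 where the other CR libraries stood between 3.10 and 4.36. *P4hb* in the conjunctiva library AL 3 stood at a log2 value of 11.69 (3296 normalized counts), above the 11.22 to 11.29 of the other AL libraries. *Plod1* in the same conjunctiva library stood at 5.07 (32.5 normalized counts), below the 6.46 to 6.62 of the others.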

How the results depend on the processing

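Under every alternative run, 0 of the 10 genes were called in the cornea and 0 in the difference between tissues. In the conjunctiva the count was 1, with 3 under array weights, 0 with the replicate block, 0 under ordinary moderation and 0 to 1 when a library was left out. With the replicate block *Serpinh1* had a log2 change of −0.92 (limma adjusted p = 0.133). Deviations of equally numbered libraries from their diet means had r of −0.30 to 0.29 for cornea pairs and −0.06 to 0.05 for conjunctiva pairs. Whether such libraries share more than a number cannot be told from so few pairs. The block lowered the calls over all genes from 150 to 46 for cornea and from 50 to 10 for conjunctiva. A library whose number occurs in 1 diet only adds nothing to a blocked diet estimate. This holds for CR 2 in the conjunctiva and for AL 5 and CR 7 in the cornea. The blocked *Serpinh1* change in the conjunctiva thus equals the change without CR 2 (−0.92). A term for each number also leaves fewer degrees of freedom, and its share in the lower counts was not tested.

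Signs turned for some values that did not pass, and the cause was not tested. With the covariate for unread genes, cornea values were −0.15 for *Serpinh1*, 0.050 for *P4hb* and −0.21 for *P4ha1*, and *Plod2* stood at 0.20 in the conjunctiva. Quantile normalization gave 0.057 for *Plod1* and 0.47 for *Loxl1* in the cornea, and −0.040 for *P4hb* and 0.048 for *Plod2* in the conjunctiva. The replicate block gave −0.039 for *Serpinh1* in the cornea, 0.081 for *Plod2* in the conjunctiva and 0.87 for *Loxl1* between tissues, where a pseudocount of 10 gave −0.094 for *Plod1*. Leaving out a library gave ranges in the cornea of −0.039 to 0.34 for *Serpinh1*, −0.10 to 0.042 for *P4hb*, −0.20 to 0.15 for *P4ha1* and −1.06 to 0.32 for *Loxl1*, in the conjunctiva of −0.0022 to 0.19 for *P4hb* and −0.25 to 0.11 for *Plod2*, and between tissues of −1.15 to 0.24 for *Loxl1* and −0.37 to 0.72 for *Plod1*.

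Calls over all genes moved from 150 for cornea to 705 with array weights, 99 with voom, 62 with the covariate, 34 under ordinary moderation and 53 to 536 without a library. For conjunctiva they moved from 50 to 149 with array weights, 4 under ordinary moderation and 26 to 127 without a library. Between tissues 2 genes passed, with 1 under the replicate block and 0 to 7 without a library. The cornea values of *Lox*, *Loxl1*, *Loxl2*, *Plod1* and *Plod2* rested on 0 to 40 reads a library.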
